A study of Mus musculus with 8 samples.

Results

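The integrin and laminin subunit genes were examined in gastrocnemius, a fast calf muscle, of mice with serum-transfer arthritis. Members were the gene symbols that begin with Itga, Itgb, Lama, Lamb or Lamc, without the binding proteins whose symbols hold bp. The rule gave 39 of 21833 symbols: 9 integrins of leukocytes, 19 other integrins and 11 laminins. The group of other integrins includes Itgbl1, a secreted protein related to integrin beta chains that the rule takes in by its name. No measured value chose the members.

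Bulk RNA was sequenced from 8 libraries in 2 groups. All mice were male C57BL/6J aged 12 weeks that received 100 µL of pooled K/BxN serum into the peritoneum on day 0 and day 2, which passes on antibody-driven arthritis. The RA+Dipy mice (n = 4) were given dipyridamole daily as well, 25 mg/kg beginning on day 0, and the RA mice (n = 4) had serum alone. Muscle was taken on day 16 in both groups. Dipyridamole blocks cellular uptake of adenosine and inhibits phosphodiesterases, and the series tests it against the muscle wasting that accompanies arthritis. The labels give K/BxN as the genotype of mice that the design text calls serum recipients, and they list the drug in a protocol field of all 8 samples, so titles decided the groups. The serum was pooled and bought. Mice without arthritis were not analysed here, and no label names a vehicle for the RA mice.

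Integrins are receptors made of 1 alpha and 1 beta chain that tie the cytoskeleton to the matrix or to other cells. Laminins are trimers of an alpha, a beta and a gamma chain and form the sheet of basement membrane that wraps each muscle fibre, capillary and Schwann cell. In muscle fibres, alpha 7 beta 1 integrin and dystroglycan hold laminins that carry the alpha 2 chain. Loss of Lama2 or Itga7 causes muscular dystrophy in mice and humans. Beta 2 integrins are restricted to leukocytes and serve adhesion to endothelium and uptake of opsonised particles.

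Library totals were 16.4 to 25.4 M counts (M, mega) in RA+Dipy and 16.7 to 50.6 M in RA. Levels are given as CPM, the counts per M of library size after scaling by the TMM method. Myh4, the myosin heavy chain of the fastest fibres, marked the tissue as fast muscle, at 33802 to 52021 CPM in RA+Dipy and 29846 to 50511 CPM in RA. RA+Dipy replicate 1 and RA replicate 4 stood apart from the other 6 libraries. Over 4757 well expressed genes their deviations from the median of the 8 libraries had an SD of 0.806 and 1.20 log2 units, against 0.169 to 0.348 in the others. RA replicate 4 was the highest or lowest of the 8 libraries for 25 of 35 tested subunits, 71.4%, and for 66.1% of all genes tested. Differences between the groups are therefore given with all 8 libraries and with the other 6.

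A total of 35 of the 39 subunits passed the filter on low counts. Itgad, Itgae, Itgb2l and Lama1 did not. The alpha D chain, Itgad, had 0 to 2 counts in RA+Dipy libraries and 0 to 5 in RA. The alpha E chain of lymphocytes lodged in epithelia, Itgae, had 4 to 11 and 1 to 9. Itgb2l had 2 counts in RA+Dipy replicate 4 and 0 in the other 7 libraries. The alpha 1 chain, Lama1, a laminin of the embryo, had 1 to 2 counts in RA+Dipy and 0 to 1 in RA. The limit that a count of 0 allows, 3 counts, ran from 0.0591 to 0.254 CPM over the 8 libraries and covers counting error only. Itgal passed the filter mainly through RA+Dipy, where 3 libraries were at the filter level against 1 in RA, so its difference is not independent of the filter.

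Per length, Itga7, Itgb1, Lamb2 and Lamc1 led their chain families by mean in both groups. These levels are CPM divided by kb (kilobases) of annotated exon and describe RNA, not protein. Annotated exon far exceeds the longest transcript for some chains, such as Itga6 (9025 against 4310 bases). For others, such as Itga5 (4933 against 4382 bases), the excess is small. The order of chains under the leading one can therefore depend on the length used. Among alpha chains Itga7 led, at 11.1 ± 0.371 CPM per kb in RA+Dipy and 15.1 ± 4.61 in RA (SD, n = 4 each). It made up 42.2% to 47.9% of the summed alpha chain level in RA+Dipy libraries and 47.5% to 56.2% in RA libraries. Next by mean stood Itga5, the fibronectin receptor chain, at 2.42 ± 0.662 and 4.27 ± 3.81 CPM per kb. Itgav, which binds vitronectin and fibronectin, followed in RA+Dipy, at 2.24 ± 0.635 and 1.66 ± 0.303. In RA the laminin receptor Itga3 had the higher mean of these 2, at 0.996 ± 0.402 in RA+Dipy and 2.02 ± 0.647 in RA. Itga7 lay above these in every library, whereas the ranges of Itga5, Itgav and the laminin receptor Itga6 overlapped in RA+Dipy. In RA those of Itgav and Itga6 overlapped and Itga5 lay above both.

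Among beta chains Itgb1, the partner of most alpha chains, stood at 45.6 ± 7.67 CPM per kb in RA+Dipy and 34.5 ± 12.1 in RA. Itgb5, a partner of alpha v, stood at 23.8 ± 3.54 and 27.1 ± 1.58. In RA replicate 4 Itgb5 led, with 49.8% of the summed beta chain level against 32.8% for Itgb1. Itgb6, another partner of alpha v that is best known from epithelia, followed at 4.51 ± 0.450 and 3.48 ± 1.04. The beta 2 chain of leukocytes, Itgb2, stood at 1.67 ± 0.644 and 0.929 ± 0.103 CPM per kb.

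Laminin beta and gamma chains were each dominated by 1 gene, and alpha chains were not. Lamb2, a beta chain concentrated at synapses and in mature basement membranes, made up 66.2% to 84.4% of the summed beta level in RA+Dipy and 84.0% to 91.7% in RA. Lamc1, the common gamma chain, made up 89.8% to 96.5% and 88.4% to 95.5% of the gamma level. Lama4, an alpha chain of vessels and nerve, stood at 2.24 ± 0.416 CPM per kb in RA+Dipy and 1.71 ± 0.424 in RA. Lama5, an alpha chain of vessels and epithelia, stood at 1.52 ± 0.441 and 1.96 ± 0.386. Lama2, the alpha chain of the fibre's own basement membrane, stood at 1.93 ± 0.952 and 1.11 ± 0.691. On this scale the ranges of these 3 alpha chains overlapped in both groups. Annotated exon equals the longest transcript for Lama5 (11388 bases). It far exceeds it for Lama4 (12068 against 6046 bases) and Lama2 (16338 against 9614 bases). The order and overlap of these chains can therefore depend on the length used. Lama3 and Lamb3, chains of skin and other epithelia, had group means between 0.0697 and 0.311 CPM per kb.

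**Figure D1:**
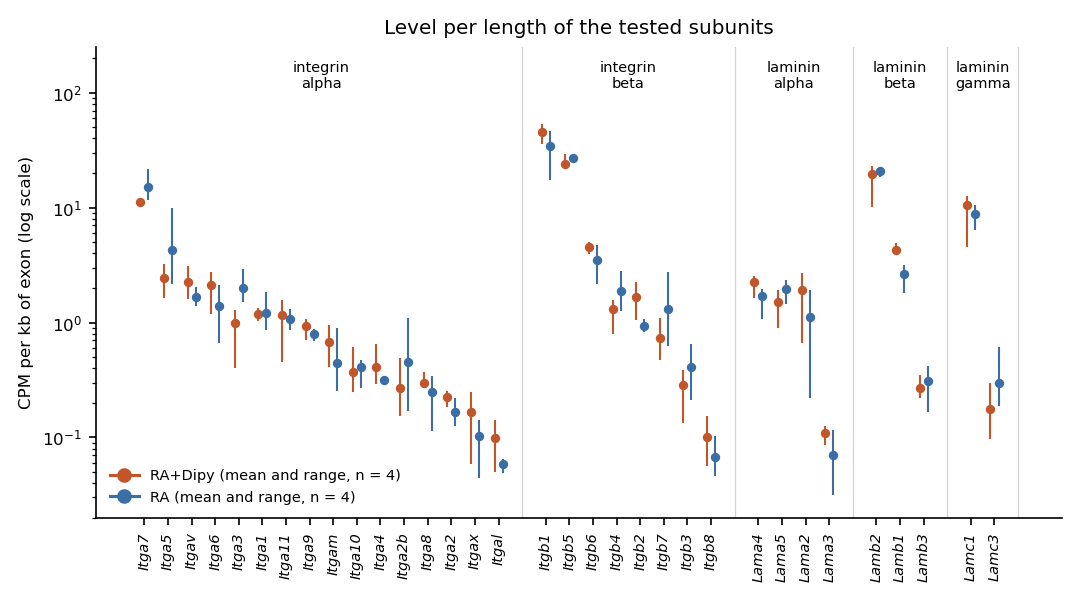
Level per length (CPM per kb of exon, log scale) of the tested subunits by chain family, Itgbl1 and 1 chain not reported here left out. Points are group means and lines the range of 4 libraries, with RA+Dipy left of RA for each gene. Itga7, Itgb1, Itgb5, Lamb2 and Lamc1 have the highest means in their families. Lama4, Lama5 and Lama2 lie close together on this scale, which depends on the exon length used.

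No subunit passed the test between RA+Dipy and RA at an adjusted p under 0.05 in edgeR, where 0 of 12755 genes, 0.0%, were called. The subunits' adjusted p ran from 0.882 to 0.978. At an unadjusted p under 0.05 edgeR gave 3 of 35 subunits, 8.57%, against a background of 3.83% of all genes: Lamb1 and Itgb2 with higher values in RA+Dipy (1.68% of all genes on that side) and Itga3 with lower ones (2.15% of all genes). DESeq2 gave 0 adjusted and 4 unadjusted, adding Itgbl1, where 740 of 12755 genes had an unadjusted p under 0.05. limma-voom gave 0 and 3, where 379 genes had one. Given a weight for each library, limma-voom called 2 of 35 subunits, Itgb2 (adjusted p = 0.0431) and Lamb1 (adjusted p = 0.0480), 5.71% against 1.04% of all genes. In edgeR with RA replicate 2 left out the unadjusted count was 6, beside 1187 of 12895 genes. With RA+Dipy replicate 1 left out it was 5, beside 688 of 12894 genes. Groups did not overlap for Lamb1, which was higher, and for Itga3 and Itga7, which were lower, again 8.57%, against 2.72% of all genes (1.46% higher and 1.26% lower). Of the 35, 21 had a positive log2 fold change, Itgal included, 60.0% against 52.2% of all genes. Their median was 0.24, against 0.02 over all genes tested.

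Without RA+Dipy replicate 1 and RA replicate 4 the spread was smaller and more subunits stood out, although none passed (smallest adjusted p = 0.418 in edgeR, 0.0% of genes called). Unadjusted p was under 0.05 for 9 of 35, 25.7%, against 11.4% of all genes. Higher values in RA+Dipy were seen for 8 of these, 22.9% against 5.96% of all genes: Itgb2, Itgam and Itgal of leukocytes, the laminin chains Lama2, Lama4, Lamb1 and Lamc1, and Itga6. Itga3 alone was lower, 2.86% against 5.45%. The 6 libraries leave 3 mice a group, and groups of 3 did not overlap for 8 subunits, 22.9% against 14.1% of all genes. Of these 6 were higher, 17.1% against 7.92% of all genes, and 2 were lower, 5.71% against 6.21%. A positive log2 fold change was seen for 25 of 35, 71.4% against 51.3% of all genes, with a median of 0.21. All these shares count Itgal, which passed the filter mainly through RA+Dipy. They describe the members and do not test them against other genes.

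**Figure D2:**
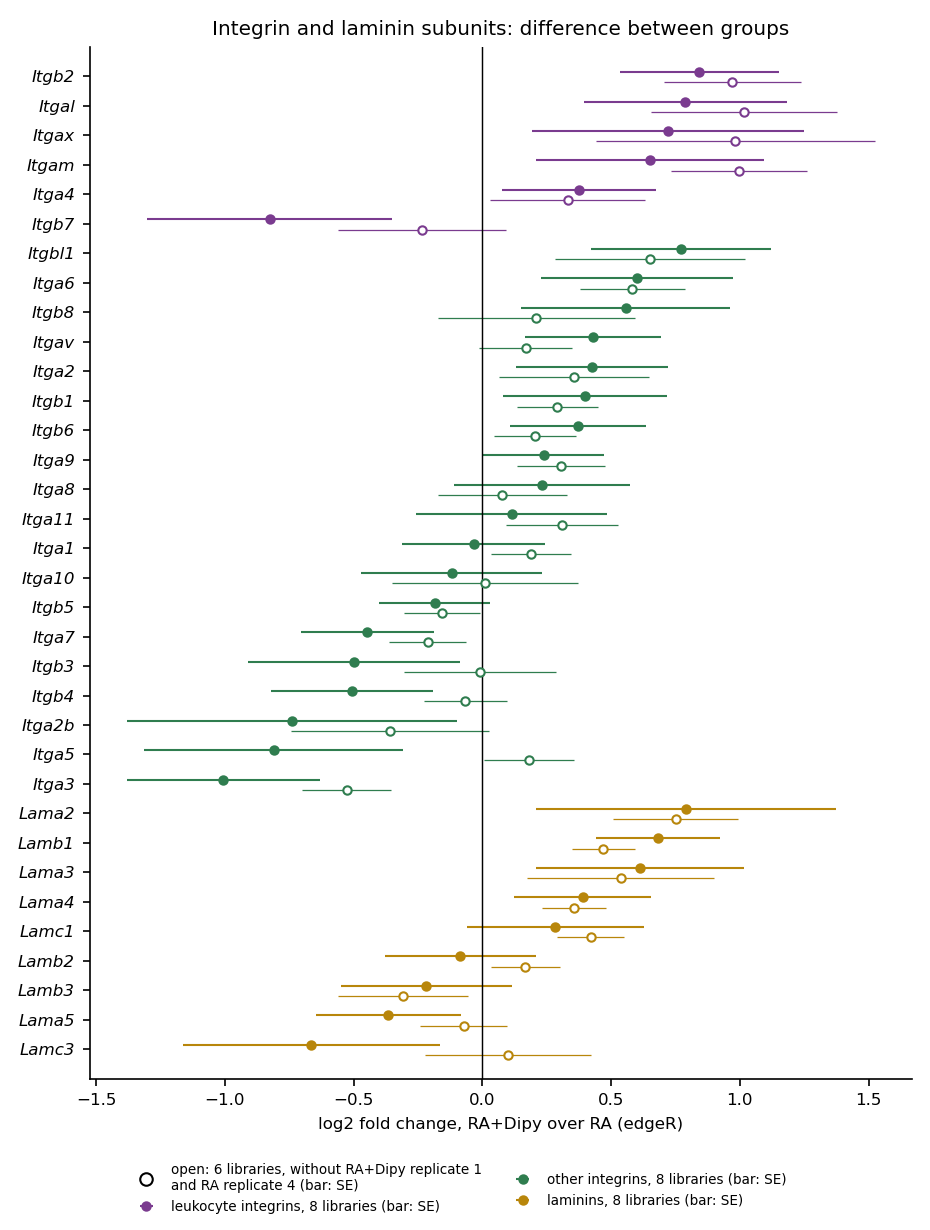
Log2 fold change of RA+Dipy over RA for the tested subunits but 1 that is not reported here, grouped into leukocyte integrins, other integrins and laminins. Filled points are the fit of 8 libraries, open points the fit of 6 libraries without RA+Dipy replicate 1 and RA replicate 4, and bars are the SE. Itgb2 stands at 0.84 and 0.97, and Itga5 at −0.81 and 0.18.

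Of the 6 leukocyte integrins tested 5 had higher means in RA+Dipy. The median log2 fold change of the 6 was 0.69, against 0.02 over all genes tested, and 0.98 in the 6 libraries. Both medians count Itgal, which passed the filter mainly through RA+Dipy. With a filter of at least 1 CPM on average, which left out Itgal and Itgax, the median with all 8 libraries was 0.51. None passed in edgeR, while Itgb2 passed in limma-voom with library weights. Itgb2, the shared beta chain of LFA-1 and the complement receptor integrins, stood at 3.23, 3.54, 6.81 and 6.76 CPM in RA+Dipy replicates 1 to 4 and at 2.72, 3.28, 2.81 and 2.54 CPM in RA. The RA+Dipy values thus split into a lower and a higher pair, and the groups met where RA replicate 2 lay between RA+Dipy replicates 1 and 2. Its log2 fold change was 0.84 (SE 0.31, unadjusted p = 0.0208, adjusted p = 0.882, edgeR), and 0.97 (SE 0.27) in the 6 libraries. Itgb2 lies on chromosome 10 at 77530252 to 77565708 (GRCm38) and shares no exon bases with another gene.

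Itgam, the alpha M chain that joins beta 2 as complement receptor 3 on macrophages and neutrophils, was at 4.82, 2.07, 3.16 and 3.52 CPM in RA+Dipy and at 1.52, 1.28, 1.60 and 4.48 CPM in RA. RA replicate 4 lay far above the other RA libraries and within the RA+Dipy range. The log2 fold change was 0.65 (SE 0.44) with all libraries and 1.00 (SE 0.26) with 6, where the groups did not overlap. Of the exon bases of Itgam, 68.7% are shared with a read-through gene on the same strand, Gm49368, which held 0 to 6 counts per library. How reads that fall in both genes were counted is not stated.

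Itgal, the alpha L chain of LFA-1, was at 0.330, 0.849, 0.924 and 0.520 CPM in RA+Dipy and at 0.414, 0.320, 0.391 and 0.423 CPM in RA, from 5 to 24 reads per library. RA+Dipy replicate 1 fell within the RA range and the other 3 lay above it (log2 fold change 0.79, SE 0.40; 1.02, SE 0.36, in the 6 libraries). Itgax, the alpha X chain of dendritic cells and some macrophages, was at 0.528, 1.18, 1.19 and 0.280 CPM against 0.591, 0.214, 0.508 and 0.676 CPM, and its groups overlapped (0.72, SE 0.53; 0.98, SE 0.54, in the 6 libraries). Itga4 pairs with beta 1 or beta 7 and binds VCAM-1. It stood at 5.87, 4.06, 4.12 and 9.08 CPM in RA+Dipy and at 4.31, 4.77, 4.73 and 3.97 CPM in RA, with RA+Dipy replicate 4 above all others (0.38, SE 0.30; 0.33 in the 6 libraries). Without RA+Dipy replicate 4 its log2 fold change was 0.07.

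Itgb7, the beta chain of gut-homing lymphocytes, went the other way, at 2.11, 3.03, 1.62 and 1.32 CPM in RA+Dipy and 2.58, 1.74, 2.73 and 7.61 CPM in RA. The groups overlapped, and the log2 fold change of −0.83 (SE 0.48) became −0.21 without RA replicate 4 alone and −0.24 in the 6 libraries.

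**Figure D3:**
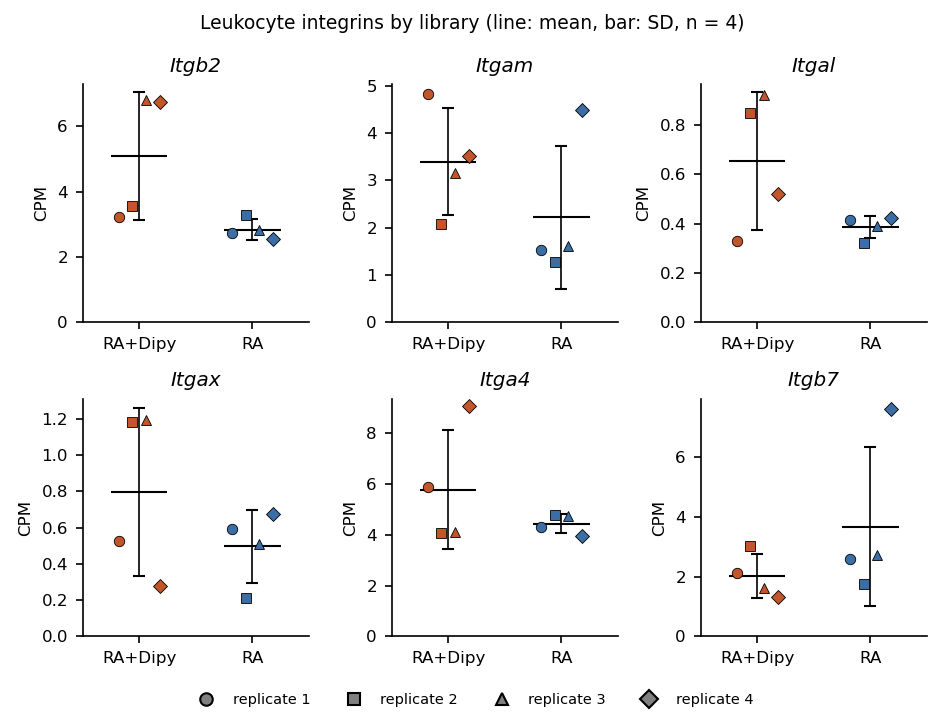
CPM of the 6 tested leukocyte integrins in each library, RA+Dipy left and RA right; marker shape gives the replicate, lines the mean and bars the SD (n = 4). RA replicate 4 stands high for Itgam (4.48 CPM) and Itgb7 (7.61 CPM), and RA+Dipy replicates 3 and 4 stand high for Itgb2 (6.81 and 6.76 CPM).

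Summed levels of the leukocyte integrins and of macrophage markers both had higher means in RA+Dipy. The summed level of 9 leukocyte integrins was 17.7, 15.1, 18.2 and 21.7 CPM in RA+Dipy and 12.3, 12.0, 13.1 and 19.8 CPM in RA. That of 12 macrophage markers was 364, 185, 344 and 326 CPM in RA+Dipy and 134, 202, 199 and 323 CPM in RA. RA replicate 4 was the highest RA library on both measures, and RA+Dipy replicate 2 the lowest RA+Dipy library. The highest RA+Dipy library was replicate 4 for the integrins and replicate 1 for the markers. In RA replicate 4 the integrin sum held 7.61 CPM of Itgb7 and 4.48 CPM of Itgam, while Itgb2 was at its lowest of all libraries, 2.54 CPM. The marker sum of that library held 127 CPM of C1qa, against 22.1 to 28.1 CPM in the other RA libraries. Lyz2, another marker on that list, was at 50.3 CPM there, within the 40.2 to 73.3 CPM of the other RA libraries. Of the 12 markers 11 were higher in RA+Dipy (median 0.68 on the log2 scale, 0 called, 5 at an unadjusted p under 0.05 in edgeR against 1.68% of all genes on the higher side), and none was at 0 in any library. In the 6 libraries all 12 were higher (median 0.69). Dendritic cell markers summed to 7.81 to 9.16 CPM in RA+Dipy and 8.58 to 10.99 in RA, with a median log2 fold change of −0.064 over 4 tested and 1 of 6 at 0 in some library. B cell markers summed to 0.308 to 0.858 CPM in RA+Dipy and 0.498 to 1.01 in RA, T and NK cell markers to 1.39 to 2.81 and 1.64 to 3.13, and neutrophil markers to 1.26 to 3.83 and 0.641 to 2.70. Of these 10 T and NK cell markers 8 were at 0 in some library, as were 3 of 5 for B cells and 3 of 7 for neutrophils. In whole muscle, fewer cells of a type and less RNA per cell cannot be told apart, and the part of macrophage number in the integrin values was not tested.

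The promoter of Itgam is shown because alpha M is the leukocyte chain that stood furthest apart by p in the 6 libraries, next to Lamb1. The window runs from 250 bases before to 50 bases after the start (RefSeq, GRCm38.p6, chr7:128062390-128062689, plus strand). Capitals mark matches, on either strand, to TATAAA (the TATA box), to GGGCGG (a core of Sp1 sites), to GAGGAA (a core of sites of PU.1, a myeloid factor known to bind the human promoter of this gene) and to CAGCTG (a form of the E-box of myogenic factors).
Itgam: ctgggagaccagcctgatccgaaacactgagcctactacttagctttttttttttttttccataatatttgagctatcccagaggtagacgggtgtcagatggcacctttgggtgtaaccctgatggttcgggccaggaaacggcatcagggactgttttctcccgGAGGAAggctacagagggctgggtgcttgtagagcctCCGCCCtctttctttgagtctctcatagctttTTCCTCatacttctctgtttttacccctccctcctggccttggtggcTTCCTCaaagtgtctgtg
The window holds 3 matches to GAGGAA and 1 to GGGCGG, none of them overlapping. Of 32851 RefSeq promoters 28.3% hold GAGGAA, 35.7% GGGCGG, 16.3% CAGCTG and 13.6% TATAAA. Of the 39 subunits 25 had a promoter there, with 28 windows in all, and 15 of these hold GAGGAA, 13 GGGCGG, 9 CAGCTG and 0 TATAAA. A match describes the letters and does not show binding.

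Laminin chains had a median log2 fold change of 0.21 over 10 tested genes, 6 of them positive, and of 0.26 in the 6 libraries, where 7 were positive. None passed in edgeR, while Lamb1 passed in limma-voom with library weights. Lamb1, the beta 1 chain of laminin-211 and laminin-411, had the smallest p of all subunits. It stood at 49.2, 39.4, 42.0 and 39.4 CPM in RA+Dipy replicates 1 to 4 and at 28.1, 31.5, 28.1 and 18.002 CPM in RA. Each RA+Dipy library lay above each RA library, with RA+Dipy replicate 1 highest and RA replicate 4 lowest. The log2 fold change was 0.68 (SE 0.24, unadjusted p = 0.0173, adjusted p = 0.882, edgeR), and 0.47 (SE 0.12, unadjusted p = 0.00359, adjusted p = 0.418) in the 6 libraries. Lamb1 lies on chromosome 12 at 31265234 to 31329644 (GRCm38) and shares no exon bases with another gene.

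Lamc1, the gamma chain of nearly all muscle laminins, was at 37.7, 104, 105 and 104 CPM in RA+Dipy and at 73.0, 87.6, 75.1 and 53.0 CPM in RA. RA+Dipy replicate 1 was the lowest library of all, while the other 3 RA+Dipy libraries lay above each RA library. Its log2 fold change was 0.28 (SE 0.34) with 8 libraries and 0.42 (SE 0.13) with 6. Lama2 was at 10.9, 28.3, 43.9 and 43.2 CPM in RA+Dipy and at 17.8, 31.1, 20.3 and 3.63 CPM in RA. RA replicate 4 held 43 reads of Lama2, far under the other libraries, and the groups overlapped (0.79, SE 0.58, with 8 libraries; 0.75, SE 0.24, with 6).

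Lama4 was at 19.9, 27.3, 30.4 and 30.6 CPM in RA+Dipy and at 22.9, 23.6, 23.0 and 12.9 CPM in RA, so the groups overlapped through RA+Dipy replicate 1 only (0.39, SE 0.27; 0.35, SE 0.12, with 6 libraries). Markers of endothelium, which makes Lama4, summed to 220.3, 358, 333 and 319 CPM in RA+Dipy and to 302, 287, 289 and 299 CPM in RA. RA+Dipy replicate 1 was the lowest RA+Dipy library for Lama4 and for these markers. RA replicate 4, the lowest of all libraries for Lama4, was within the range of the other RA libraries for the summed markers. Single markers differed from the sum. Cdh5 was at 15.7 CPM there against 53.8 to 65.1 CPM in the other RA libraries, and Pecam1 at 59.8 against 63.3 to 68.7 CPM. The remaining markers together were higher in that library. The part of endothelium in the Lama4 values was not tested. Markers of fibroblasts, which make Lama2 and Lamb1, summed to 2613, 2084, 2439 and 2317 CPM in RA+Dipy and to 1821, 2108, 2445 and 1427 CPM in RA; their part was not tested.

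Lama5 was at 10.2, 19.5, 17.9 and 21.7 CPM in RA+Dipy and at 23.6, 22.4, 16.4 and 27.0 CPM in RA, with overlapping groups (−0.36, SE 0.28; −0.07, SE 0.17, with 6 libraries). Lamb2 was at 61.6, 134, 138 and 139.7 CPM in RA+Dipy and at 137, 113, 119 and 133 CPM in RA. Its log2 fold change was −0.09 (SE 0.29), and 0.17 (SE 0.13) in the 6 libraries, so its sign turned. Of the low chains, Lama3 stood at 0.61 (SE 0.40), Lamb3 at −0.22 (SE 0.33) and Lamc3 at −0.66 (SE 0.50), and in the 6 libraries at 0.54, −0.31 and 0.10. Lamc3 was at 3.72 CPM in RA replicate 4 against 1.13 to 1.20 CPM in the other RA libraries, and without that library stood at −0.07.

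As a share of the summed alpha chain level per kb, Lama5 held 27.1%, 29.5%, 22.8% and 26.4% in RA+Dipy and 40.6%, 33.1%, 30.9% and 64.0% in RA. The groups did not overlap. Lamb1 held 32.4%, 15.04%, 15.6% and 14.6% of the beta chain level in RA+Dipy and 11.1%, 14.3%, 12.4% and 7.59% in RA, again without overlap but with a gap of under 1 percentage point between RA+Dipy replicate 4 and RA replicate 2. These 2 shares were singled out after their values were seen and carry no test.

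The promoter of Lamb1 is shown as that of the subunit with the smallest p (RefSeq, GRCm38.p6, chr12:31265043-31265342, plus strand), with capitals for the same motifs.
Lamb1: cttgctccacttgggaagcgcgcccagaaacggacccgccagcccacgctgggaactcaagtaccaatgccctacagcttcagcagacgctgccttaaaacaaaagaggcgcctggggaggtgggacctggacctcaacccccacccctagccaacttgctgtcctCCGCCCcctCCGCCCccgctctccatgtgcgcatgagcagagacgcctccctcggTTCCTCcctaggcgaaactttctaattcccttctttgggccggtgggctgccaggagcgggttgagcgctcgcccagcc
It holds 2 matches to GGGCGG and 1 to GAGGAA, read on the other strand, and none to CAGCTG or to TATAAA.

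**Figure D4:**
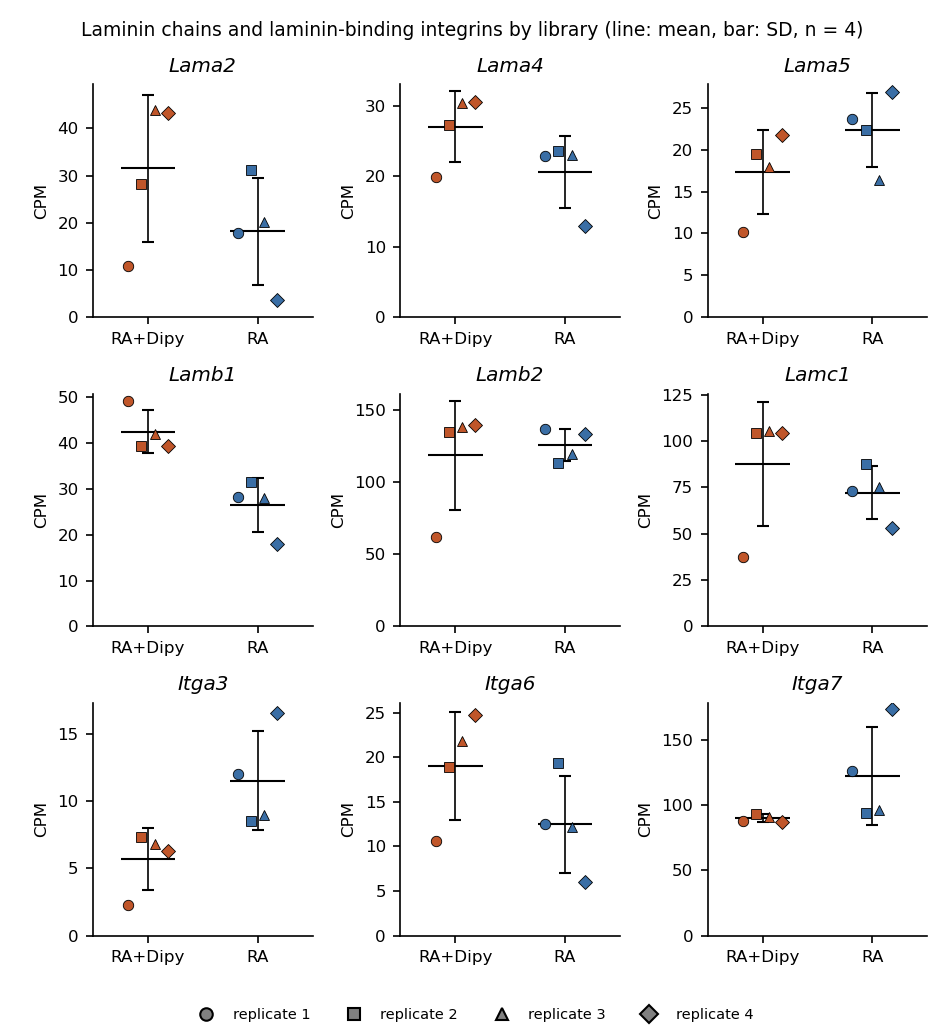
CPM of 6 laminin chains and the 3 laminin-binding integrin alpha chains in each library, RA+Dipy left and RA right; marker shape gives the replicate, lines the mean and bars the SD (n = 4). Lamb1 lies higher in each RA+Dipy library (39.4 to 49.2 CPM) than in each RA library (18.002 to 31.5 CPM), and Itga3 lies lower (2.31 to 7.35 against 8.55 to 16.6 CPM).

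Of the alpha chains that bind laminin, Itga3 and Itga7 had lower means in RA+Dipy and Itga6 a higher one; none passed in edgeR. Itga3, a laminin receptor in epithelia and vessels, was at 2.31, 7.35, 6.81 and 6.28 CPM in RA+Dipy and at 12.0, 8.55, 8.98 and 16.6 CPM in RA. The groups did not overlap, and the libraries that stood apart were the lowest of RA+Dipy and the highest of RA. The log2 fold change was −1.01 (SE 0.37, unadjusted p = 0.0224, adjusted p = 0.882, edgeR), and −0.53 (SE 0.17, unadjusted p = 0.0128, adjusted p = 0.418) in the 6 libraries. It was −0.77 when RA replicate 4 alone was left out and −0.75 when RA+Dipy replicate 1 alone was. Itga3 lies on chromosome 11 at 95044474 to 95076801 (GRCm38) and shares no exon bases with another gene.

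Itga7 was at 88.2, 93.5, 91.0 and 86.8 CPM in RA+Dipy and at 126, 93.8, 96.0 and 174 CPM in RA. The RA+Dipy values lay close together and just under the RA range, from which RA+Dipy replicate 2 was less than 1 CPM away. The log2 fold change was −0.45 (SE 0.26) with 8 libraries and −0.21 (SE 0.15) with 6. Itga6, a laminin receptor of endothelium and Schwann cells, was at 10.6, 18.9, 21.9 and 24.7 CPM in RA+Dipy and at 12.5, 19.3, 12.2 and 6.00 CPM in RA. Its groups overlapped, with a log2 fold change of 0.60 (SE 0.37), and 0.58 (SE 0.20, unadjusted p = 0.0170, edgeR) in the 6 libraries. Itgb4, the partner of alpha 6 in Schwann cells and epithelia, stood at −0.51 (SE 0.31), and at −0.07 (SE 0.16) in the 6 libraries. Schwann cell markers summed to 177, 212, 223 and 129.6 CPM in RA+Dipy and to 337, 230.1, 191 and 514 CPM in RA; their part in the Itgb4 and Itga6 values was not tested.

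The promoter of Itga3 is shown as that of the 1 subunit with lower values and an unadjusted p under 0.05 (RefSeq, GRCm38.p6, chr11:95076665-95076964, minus strand), with capitals for the same motifs.
Itga3: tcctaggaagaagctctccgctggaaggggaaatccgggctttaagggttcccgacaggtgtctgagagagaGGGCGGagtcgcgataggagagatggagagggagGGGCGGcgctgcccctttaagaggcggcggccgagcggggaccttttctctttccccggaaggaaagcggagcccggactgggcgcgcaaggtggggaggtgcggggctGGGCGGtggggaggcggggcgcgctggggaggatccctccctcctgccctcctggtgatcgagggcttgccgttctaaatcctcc
It holds 3 matches to GGGCGG and none to the other motifs. A second RefSeq window of Itga3, at another start and not shown, does hold GAGGAA.

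Of the 4 alpha chains that bind collagen 2 had a positive log2 fold change (median 0.04), and all 4 had one in the 6 libraries (median 0.25); none passed in edgeR. Itga1, found on vessels and fibroblasts, was at 24.9, 22.4, 19.1 and 21.2 CPM in RA+Dipy and 15.9, 21.9, 17.6 and 34.6 CPM in RA (−0.03, SE 0.28; 0.19 in the 6 libraries). Itga11, a fibroblast collagen receptor, was at 2.31, 5.58, 7.74 and 8.08 CPM against 4.43, 6.30, 6.76 and 4.48 CPM (0.11, SE 0.37; 0.31 in the 6 libraries). Itga2 stood at 0.43 (SE 0.29; 0.36 in the 6 libraries) and Itga10 at −0.12 (SE 0.35; 0.0092 in the 6 libraries), with means of 1.59 and 1.94 CPM in RA+Dipy and 1.18 and 2.12 CPM in RA. Groups overlapped for all 4 with 8 libraries.

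Of the chains that read the RGD motif of fibronectin and vitronectin, Itgav was at 33.4, 17.3, 24.1 and 21.4 CPM in RA+Dipy and at 15.4, 21.9, 19.0 and 14.96 CPM in RA (0.43, SE 0.26; 0.17, SE 0.18, with 6 libraries). Itga5 was at 8.05, 11.4, 16.0 and 12.2 CPM in RA+Dipy and at 13.6, 10.8, 10.7 and 49.2 CPM in RA. A single library, RA replicate 4, set its log2 fold change of −0.81 (SE 0.50), which was 0.041 without it and 0.18 in the 6 libraries. Itga8, a receptor of smooth muscle and mesenchyme, stood at 0.23 (SE 0.34; 0.077 in the 6 libraries), and Itga9, which binds tenascin-C and VCAM-1, at 0.24 (SE 0.24; 0.31 in the 6 libraries).

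Itgb1 was at 145, 179, 217 and 202 CPM in RA+Dipy and at 146, 188, 157 and 71.4 CPM in RA. Groups overlapped, with RA replicate 4 at less than the level of any other library (0.40, SE 0.32; 0.29, SE 0.16, with 6 libraries). Itgb5 was at 79.2, 104, 78.2 and 78.0 CPM against 89.3, 102, 99.7 and 94.4 CPM (−0.18, SE 0.22; −0.16 in the 6 libraries), where RA+Dipy replicate 2 alone lay above the RA libraries. Itgb6 was at 32.1, 31.8, 36.0 and 28.2 CPM against 33.3, 25.8, 24.6 and 15.3 CPM (0.37, SE 0.26; 0.21 in the 6 libraries). Itgb8, which activates TGF-beta with alpha v, stood at 0.56 (SE 0.41; 0.21 in the 6 libraries) from means of 1.13 and 0.745 CPM.

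The platelet fibrinogen receptor chains, Itga2b and Itgb3, stood at −0.74 (SE 0.64) and −0.50 (SE 0.41), and in the 6 libraries at −0.36 and −0.011. Itgb3 stood at −0.21 with RA replicate 4 alone left out. Itga2b was at 2.71, 0.960, 1.35 and 0.840 CPM in RA+Dipy and at 2.09, 0.926, 0.937 and 6.00 CPM in RA, and without RA replicate 4 its log2 fold change was 0.10. The 2 platelet markers tested went opposite ways, and 5 of 7 on the list were at 0 in some library. The platelet factor Pf4 was at 33.9, 8.90, 10.97 and 11.3 CPM in RA+Dipy and at 7.54, 8.72, 12.3 and 13.7 CPM in RA (0.62, SE 0.44). Gp1ba was at 2.44, 2.92, 2.73 and 2.32 CPM in RA+Dipy and at 3.90, 2.78, 2.50 and 4.65 CPM in RA (−0.40, SE 0.27). The part of platelets in the Itga2b and Itgb3 values was not tested. Itgbl1, the integrin-like secreted protein, was at 19.7, 11.5, 28.3 and 17.5 CPM in RA+Dipy and at 7.31, 13.8, 15.9 and 8.03 CPM in RA. Groups overlapped, with a log2 fold change of 0.77 (SE 0.35, unadjusted p = 0.0521, adjusted p = 0.882, edgeR), and 0.65 (SE 0.37) in the 6 libraries.

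GC content of the transcripts moved with these differences. The 21 subunits with a positive log2 fold change had a median GC content of 48.9% (40.4% to 55.5%), and the 14 with a negative one of 57.8% (42.8% to 60.0%). Across the 35 subunits Pearson's r of log2 fold change with GC content was −0.65, and −0.40 in the 6 libraries. Over all genes tested the same values were −0.48 and −0.20. The deviation of each subunit from its median in RA+Dipy replicate 1 had an r of −0.51 with GC content, and that in RA replicate 4 one of 0.55. These correlations run across genes that share the same libraries, so they are a description, and the part of GC content in the values above was not tested.

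**Figure D5:**
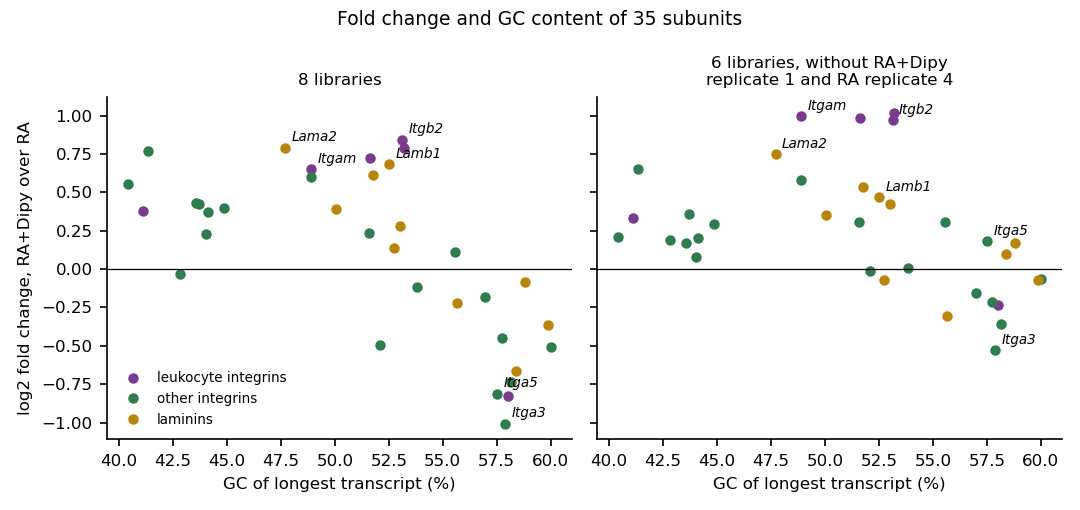
GC content of the longest transcript (%) against the log2 fold change of RA+Dipy over RA for 35 subunits, with 8 libraries on the left and 6 on the right. Each point is a gene, coloured by class. The slope seen on the left (r = −0.65) is weaker on the right (r = −0.40), where Itga5 moves to 0.18.

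Partners of these subunits in the pathway were counted by list, and none of their genes passed in edgeR. Of 14 tested matrix ligands of integrins 9 were higher in RA+Dipy (median 0.57 on the log2 scale), 4 of them at an unadjusted p under 0.05 against 1.68% of all genes. Periostin, Postn, a ligand of alpha v integrins, stood at 1.83 (SE 0.44), and collagen III, Col3a1, at 1.44 (SE 0.51), and in the 6 libraries, where 10 of the 14 were higher (median 0.59), at 1.54 and 1.39. Of 16 basement membrane partners of laminin 12 were higher (median 0.39), with 0 at an unadjusted p under 0.05 in edgeR. They were led by Sparc, a collagen-binding matrix protein, at 0.54 (SE 0.27) and Col15a1, a basement membrane collagen, at 0.57 (SE 0.30). In the 6 libraries 15 of these 16 were higher, 8 at an unadjusted p under 0.05 against 5.96% of all genes, with Sparc and Col15a1 both at 0.64.

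Of 31 tested adaptors and adhesion proteins inside the cell 11 were higher and 20 lower (median −0.14), with 0 at an unadjusted p under 0.05 in edgeR. In the 6 libraries 19 were higher and the median was 0.04. Cib1, which binds the tail of the platelet alpha chain, stood at −0.97 (SE 0.50) and −0.16, and tensin 2, Tns2, at −0.67 (SE 0.41) and 0.07, in the 8 and the 6 libraries. Of 10 laminin receptors that are not integrins 6 were higher (median 0.082), and 7 in the 6 libraries (median 0.051). Bcam, the receptor of the laminin alpha 5 chain, was at 31.6, 61.1, 59.1 and 46.2 CPM in RA+Dipy and at 77.7, 53.9, 69.3 and 196 CPM in RA (−1.002, SE 0.42; −0.26 in the 6 libraries). Sgca, a sarcoglycan, stood at −0.53 (SE 0.29; −0.27 in the 6 libraries). Of 7 ligands of leukocyte integrins 4 were higher with 8 and with 6 libraries (medians 0.21 and 0.046), and Vcam1, the endothelial ligand of alpha 4 integrins, was at 7.13, 4.10, 5.77 and 4.48 CPM in RA+Dipy and at 3.33, 3.77, 4.06 and 3.80 CPM in RA (0.52, SE 0.25; 0.38 in the 6 libraries). Jam2, an endothelial junction protein that binds alpha 4 beta 1, was at 33.0, 29.0, 31.0 and 30.0 CPM against 20.5, 28.2, 27.2 and 8.198 CPM (0.54, SE 0.35; 0.26 in the 6 libraries). For both genes the RA+Dipy libraries lay above the RA libraries, by a narrow margin.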

How the data were processed

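The authors deposited raw read counts per protein-coding gene symbol for each library, not normalized. Reads were 100 nt and single-ended. Trimming used fastp 0.20.0, alignment STAR 2.7.3a on GRCm38.p6, and counting HTSeq ignoring strand, per the labels and the submitters' processing notes. Of the 39 subunits 12 share exon bases with another gene in GENCODE vM21, 9 of them on the opposite strand. Per the labels, titles gave the groups.

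Counts on repeated lines of 24 symbols were summed. Genes were kept by filterByExpr (minimum count 10; 12755 kept), scaled by TMM and tested two-sided in edgeR 4.0.16 (R 4.3.3; robust quasi-likelihood, group as the sole term), with Benjamini-Hochberg adjustment over all genes at 0.05. Log2 fold changes are RA+Dipy over RA. The test was checked on simulated data with less spread than these libraries have and with no library standing apart. That check therefore does not show how often a true difference would be found here. Alternatives were other scaling and filters, DESeq2 1.42.0, limma 3.58.1 (voom, with and without library weights), a replicate block and libraries left out. Levels per length used exon unions, and GC content the longest transcript, of GENCODE vM21. All subunits entered the counts and medians, and the values of 1 are not reported here; of each pathway list the 2 genes with the smallest p were named. Members, lists, tests and alternatives were chosen with earlier results of these data known, and the place of Itgbl1 after the files were read. Nothing says that replicate numbers pair mice, and no 2 libraries of the same group agreed within sampling noise (smallest chi-square per degree of freedom 29.3). Libraries of different groups were not compared in this way. P-values measure the spread between these mice.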

Additional observations from a re-analysis of the deposited data

Results flagged for a closer look

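Single libraries lay far from the other 3 of their group for 9 of the 70 values examined (35 subunits in both groups). Chance marks about 1 in 20 where values are normal and independent, and subunits share the same libraries. The share over all genes is not given here, so the count is not a trait particular to the subunits. RA replicate 4, the highest or lowest library for 66.1% of all genes tested, accounts for 5 of the 9. It held 49.2 CPM of Itga5 against 10.7 to 13.6 in the other RA libraries, 4.48 CPM of Itgam against 1.28 to 1.60, and 7.61 CPM of Itgb7 against 1.74 to 2.73. It also held 3.72 CPM of Lamc3 against 1.13 to 1.20, and 12.9 CPM of Lama4 against 22.9 to 23.6. RA+Dipy replicate 1 held 61.6 CPM of Lamb2 against 134 to 139.7 in the other RA+Dipy libraries and 37.7 CPM of Lamc1 against 104 to 105. RA+Dipy replicate 2 held 104 CPM of Itgb5 against 78.0 to 79.2, and RA+Dipy replicate 4 held 2.72 CPM of Itga8 against 1.98 to 2.04.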

How the results depend on the processing

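Log2 fold changes kept their sign in every alternative run for 26 of 34 subunits: 6 of 6 leukocyte integrins, 13 of 19 other integrins and 7 of 9 laminins. No gene was called in edgeR or DESeq2 under any alternative. limma-voom with library weights called 133 genes and 2 subunits, Itgb2 and Lamb1. There 14 of 35 subunits had an unadjusted p under 0.05, beside 3638 of 12755 genes. In edgeR without RA+Dipy replicate 1 and RA replicate 4 it was 9 of 35, beside 1461 of 12796 genes. Leaving out 1 library at a time gave 2 to 6 such subunits, beside 178 to 1187 genes, against 3 and 488 with all. The leukocyte median was 0.98 without those 2 libraries and 0.46 to 0.82 leaving out 1. Deviations from the group mean correlated at −0.20, 0.11, 0.15 and −0.27 between libraries of the same replicate number, 1 to 4. Numbers 1 and 4 each hold a library that stood apart, so these values cannot show whether numbers pair mice. With the number as a replicate block 2 subunits and 165 genes had an unadjusted p under 0.05 in edgeR, against 3 and 488. Signs turned with library weights for Itga1 (0.20), Itga10 (0.064), Itga5 (0.23), Itgb3 (0.15) and Lamb2 (0.12). They turned without the 2 libraries for Itga1 (0.19), Itga10 (0.0092), Itga5 (0.18), Lamb2 (0.17) and Lamc3 (0.10). Itga1 also turned with upper-quartile scaling (0.033), limma-voom (0.032) and the block (0.027), and Itga11 with the block (−0.010). Leaving out 1 library gave −0.17 to 0.26 for Itga1, −0.46 to 0.035 for Itga10, −0.070 to 0.37 for Itga11, −1.18 to 0.10 for Itga2b, −1.03 to 0.041 for Itga5, −0.17 to 0.13 for Lamb2 and −1.03 to −0.071 for Lamc3. The cause was not tested. Low counts limit Itgal, Itgax, Itgb8 and Lama3, which did not reach the filter level in every library.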
